A study of Arabidopsis thaliana with 4 samples.

Results

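The 8 genes described here encode the gibberellin receptors GID1A, GID1B and GID1C and the DELLA repressors RGA, GAI, RGL1, RGL2 and RGL3 of Arabidopsis thaliana. They were chosen by name, as 8 of the 27444 nuclear protein-coding genes, and each was matched by symbol or synonym to its locus code. Around each gene, all SMXL6 peaks within 5000 bp of either end were collected from 2 peak lists. The assay was ChIP-seq, sequencing of DNA that an anti-HA polyclonal antibody pulls down with crosslinked protein, and the material was whole seedlings aged 2 weeks. There were 2 libraries of smxl6/7/8 pSMXL6:SMXL6-HA plants, in which HA-tagged SMXL6 is driven by its own promoter, and 2 libraries of smxl6/7/8 plants, which carry no tagged protein. Both groups thus carry the mutations in the native genes SMXL6, SMXL7 and SMXL8. List 1 holds the peaks of SMXL6-HA replicate 1 called against control replicate 1, and list 2 those of SMXL6-HA replicate 2 against control replicate 2. Whether the replicates came from separately grown plants is not stated, so the spread between the lists may be technical.

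Gibberellin is perceived by the soluble GID1 receptors. With the hormone bound, GID1 takes hold of a DELLA protein, and the F-box protein SLY1 then directs the DELLA for destruction by the proteasome. DELLA proteins are nuclear GRAS-family regulators that restrain growth by binding and inhibiting, or assisting, transcription factors. Strigolactone signalling has a similar layout: the receptor D14 and the F-box protein MAX2 remove SMXL6, SMXL7 and SMXL8, which are themselves repressors. The peak lists therefore show where the repressor of one hormone pathway lay relative to the receptor and repressor genes of another.

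There were 1789 peaks in list 1, with widths of 2824 bp at the median, and 1442 in list 2, with widths of 1236 bp. Each peak carries the authors' own score, taken to be −10 times the log10 of its p. Median scores were 92.0 (list 1) and 89.2 (list 2). Ranks below count from the highest score of a list, and they compare peaks only within that list. A site is called below a gene where its chromosome coordinates are lower and above it where they are higher. Strand was not used here, so neither side can be called the promoter. Read depth is unknown, so occupancy at genes that had no peak may only have been too weak to be called.

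SMXL6 peaks lay at 1 of the 3 receptor genes, GID1B, and at 3 of the 5 DELLA genes, RGL1, GAI and RGA. These 4 of 8 genes had a peak within 5000 bp in each list, and at every one of them a list 1 peak overlapped a list 2 peak. GID1A, GID1C, RGL2 and RGL3 had no peak within that distance in either list. Among all protein-coding genes, 21.4% had a list 1 peak within 5000 bp, 15.4% a list 2 peak, 12.2% peaks of both lists and 11.5% overlapping peaks of both lists. No test was made on the 8 genes, which were picked with earlier results of these data known.

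**Figure D1:**
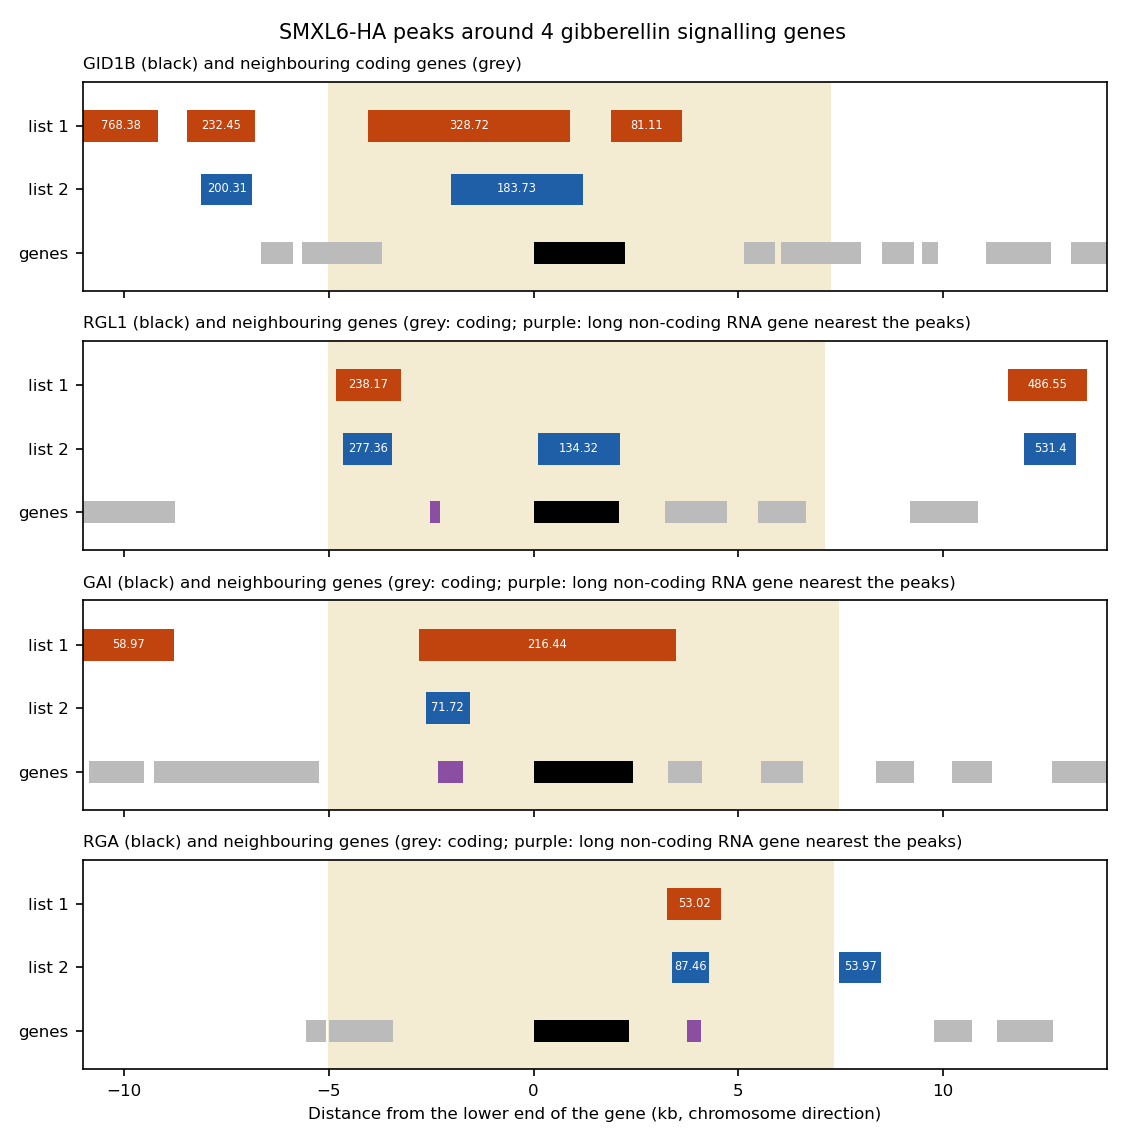
Peaks of list 1 (red) and list 2 (blue) with their scores, drawn along the chromosome in kb from the lower end of GID1B, RGL1, GAI and RGA; shading marks the gene and 5000 bp on each side. The overlapping peaks cross the lower end of GID1B, stand 3231 bp and 3449 bp below RGL1, share the region below GAI and stand 938 bp and 1054 bp above RGA.

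GID1B (AT3G63010; chromosome 3, 23289243 to 23291486) was the only receptor gene with a peak. GID1B forms a receptor type of its own in Arabidopsis, apart from the closely related GID1A and GID1C. The list 1 peak spanned 23285198 to 23290144 with a score of 328.72, rank 110. It covered 40.2% of the gene and ran 4045 bp below it, across the edge of the neighbouring gene NPL41 and a pair of tRNA genes. The list 2 peak spanned 23287220 to 23290445 with a score of 183.73, rank 298. It covered 53.6% of GID1B and ran 2023 bp below it. Both peaks thus lay over the lower part of GID1B and the intergenic stretch beside it, and the shared part was 2925 bp long. GID1B had the nearest gene end to the midpoint of each. It was the only one of the 8 genes overlapped by a peak of both lists, as were 3.40% of all protein-coding genes. A second list 1 peak, at 23291124 to 23292861, covered 16.2% of the gene at its upper end. Its score of 81.11 placed it at rank 1050, and no list 2 peak overlapped it.

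GID1A (AT3G05120; chromosome 3, 1430363 to 1432844) and GID1C (AT5G27320; chromosome 5, 9628990 to 9631291) act together with GID1B in stem growth. The nearest peaks to GID1A were 49909 bp away in list 1 and 56969 bp in list 2. For GID1C they were 112570 bp and 112912 bp away. These distances exceeded the medians of all protein-coding genes, 21199 bp in list 1 and 28961.5 bp in list 2. No peak midpoint of either list lay within 100 kb of the middle of GID1C, while GID1A had 4 of list 1 and 3 of list 2 there.

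RGL1 (AT1G66350; chromosome 1, 24748105 to 24750186), a DELLA gene with roles described in seeds and flowers, had the highest-ranked shared peak of the DELLA genes. The list 1 peak at 24743270 to 24744874 had a score of 238.17, rank 215, and lay 3231 bp below the gene. The list 2 peak at 24743449 to 24744656 had a score of 277.36, rank 172, and lay 3449 bp below it, wholly inside the list 1 peak. RGL1 had the nearest end of a protein-coding gene to both. A further list 2 peak, at 24748202 to 24750216, covered 95.3% of RGL1 itself with a score of 134.32, rank 445, and had no counterpart in list 1. Of the 445 list 2 peaks with at least that score, 413 (92.8%) overlapped a list 1 peak and 32 did not. Of all list 2 peaks, 74.7% overlapped a list 1 peak.

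GAI (AT1G14920; chromosome 1, 5148982 to 5151415), which with RGA is the main restraint on stem elongation, lay under a broad peak in list 1 only. That peak spanned 5146184 to 5152450, 6267 bp, and covered the whole gene, with a score of 216.44 and rank 252. It ran 2798 bp below GAI and 1035 bp above it, where it reached AT1G14930. The list 2 peak at 5146356 to 5147419 was 1064 bp wide, with a score of 71.72, rank 963. It lay inside the list 1 peak but 1563 bp below the gene, and made up 17.0% of the list 1 peak. The lists thus overlapped in a stretch below GAI, whereas the stretch over the gene itself was called in list 1 alone. No summit is given, so where the list 1 signal was highest within its broad peak is unknown. With list 1 peaks cut down around their midpoints to the median list 2 width, the peaks at GAI no longer overlapped. The list 2 peak lay near the lower end of the list 1 peak, so this loss followed from position alone.

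RGA (AT2G01570; listed as RGA1; chromosome 2, 255247 to 257568) had the lowest-scoring shared peak of list 1 among the 4 genes. It spanned 258506 to 259835, with a score of 53.02, rank 1697 of 1789, 938 bp above the gene. The list 2 peak at 258622 to 259538, with a score of 87.46 and rank 748, lay 1054 bp above RGA and wholly inside the list 1 peak. The 1697 list 1 peaks that scored at least as high made up 94.9% of the list. Their shared part, 56.9%, therefore had to lie close to the 54.9% of all list 1 peaks and tells little about this peak. Of the 748 list 2 peaks that scored at least as high as the one at RGA, 87.7% overlapped a list 1 peak. Among all list 2 peaks it was 74.7%. The next peak, in list 2 only, stood 5138 bp above RGA, just outside the 5000 bp limit, with a score of 53.97. The peaks nearest inside the limit were those of RGL1 at 3231 bp and 3449 bp, and the next shared peak outside it lay 6811 bp and 6864 bp below GID1B. With a limit of 1000 bp, only GID1B kept a peak in both lists, as did 5.13% of all protein-coding genes.

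RGL2 (AT3G03450; chromosome 3, 819337 to 821652), the DELLA gene best known for holding back germination, had its nearest peaks at 88850 bp in list 1 and 92336 bp in list 2. For RGL3 (AT5G17490; chromosome 5, 5763989 to 5766246), a DELLA gene linked to jasmonate responses, they were at 66783 bp and 67202 bp. The 8 genes thus fell into 2 sets with no intermediate case: in each list 4 had a peak within 3231 bp and the other 4 had none closer than 49909 bp. In list 1 the distances of GID1C, RGL2 and RGL3 exceeded the upper quartile of all protein-coding genes, 51105 bp, and in list 2 those of GID1C and RGL2 exceeded its upper quartile, 68492 bp.

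**Figure D2:**
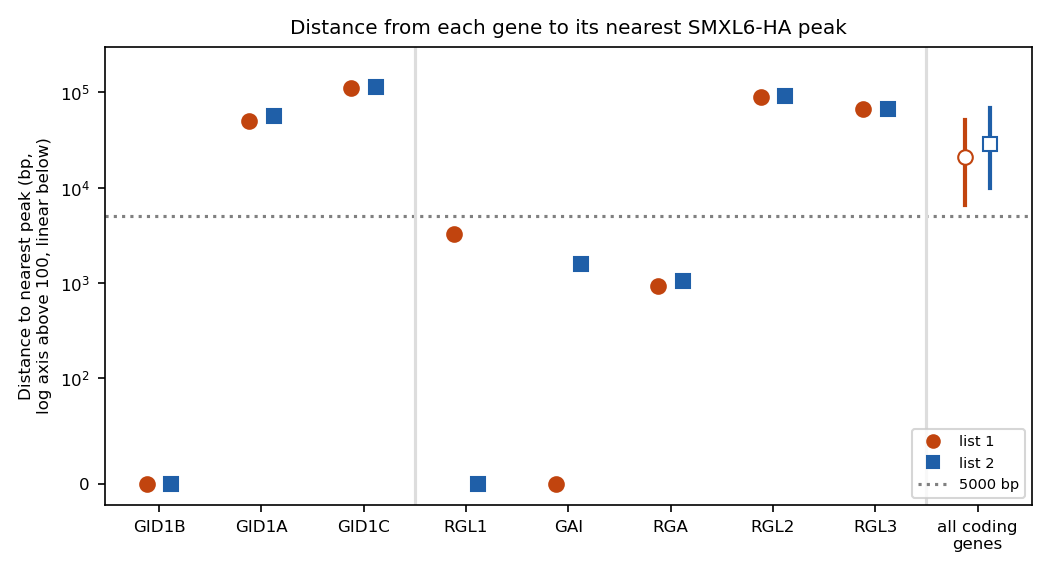
Distance in bp from each gene to its nearest peak in list 1 (circles) and list 2 (squares), on an axis that is logarithmic above 100 bp; open symbols give the median of all protein-coding genes and lines their middle 50%. GID1B, RGL1, GAI and RGA lie under the dotted 5000 bp line in both lists, and the other 4 genes lie at 49909 bp or more.

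The order of the scores differed between the lists. In list 1 it ran GID1B (328.72), RGL1 (238.17), GAI (216.44) and RGA (53.02), and in list 2 RGL1 (277.36), GID1B (183.73), RGA (87.46) and GAI (71.72), for the shared peaks. GID1B and RGL1 ranked above GAI and RGA in both lists, whereas the order within each of these pairs turned between them and was not settled. The median over the 4 genes was 227 in list 1 and 136 in list 2, against 124 and 117 over the 3158 protein-coding genes with overlapping peaks, each taken at its best pair. With scores of at least 100, only GID1B and RGL1 kept shared peaks, as did 5.17% of all protein-coding genes.

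**Figure D3:**
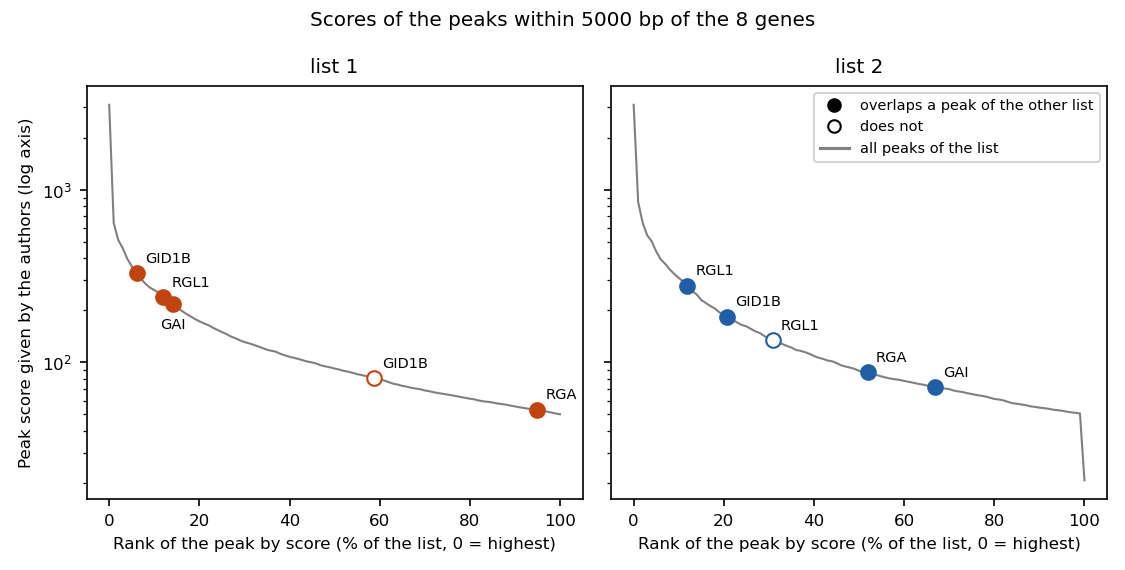
Score of each peak within 5000 bp of the 8 genes (log axis) against its rank as a percentage of the list, for list 1 and list 2; the grey line is the whole list and open circles are peaks with no overlapping peak in the other list. GID1B and RGL1 stand within the highest 20.7% of both lists by their shared peaks, whereas RGA stands at 94.9% in list 1 and GAI at 66.8% in list 2.

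Counting each peak only for the protein-coding gene with the nearest end left the same 4 genes with peaks of both lists, against 3.09% of all protein-coding genes. When non-coding genes were also allowed to claim a peak, only GID1B kept one in both lists, against 2.57% of all protein-coding genes. GAI then kept its list 1 peak and RGL1 the list 2 peak over the gene, while RGA kept none. A long non-coding RNA gene lay close to each of the DELLA sites. AT2G04015, 328 bp long and 1430 bp above RGA, was covered whole by the peaks of both lists. So was AT1G05133, 609 bp long and 1716 bp below GAI. Near RGL1, AT1G08843 lay between the gene and the shared peaks, 700 bp from the list 1 peak and 918 bp from the list 2 peak. Of all peaks, 17.1% in list 1 and 12.6% in list 2 overlapped a long non-coding RNA gene.

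The 4 genes with peaks also had the widest gaps to their neighbouring protein-coding genes. Summed over both sides, the gap was 10893 bp at RGA, 9874 bp at RGL1, 6597 bp at GID1B and 6093 bp at GAI. The genes without peaks had 3839 bp (GID1C), 2926 bp (GID1A), 1918 bp (RGL3) and 1703 bp (RGL2), so these sets did not overlap. The median of all protein-coding genes was 1833.5 bp. All 4 genes with peaks belong to the 25% of protein-coding genes with the widest gaps, of which 12.7% had overlapping peaks within 5000 bp, close to the 11.5% of all. The 25% with the next widest gaps, which hold GID1A, GID1C and RGL3, had a share of 12.7% too. In the 25% after that, which hold RGL2, it was 10.6%. For peaks counted only for the gene with the nearest end, the share in the widest-gap class was not computed. Gene lengths overlapped, with medians of 2283 bp for the genes with peaks and 2309 bp for those without. Peak midpoints within 100 kb of the middle of the gene numbered 7 in list 1 and 5 in list 2 at GID1B, 5 and 4 at RGL1, 8 and 3 at GAI, and 1 and 4 at RGA. RGL2 had 2 and 1 there, RGL3 4 and 3, and the medians of all protein-coding genes were 3 and 2. These counts include the peaks within 5000 bp of a gene, so they were partly raised by definition at the genes with peaks. At RGA the 1 list 1 peak counted was its own shared peak.

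**Figure D4:**
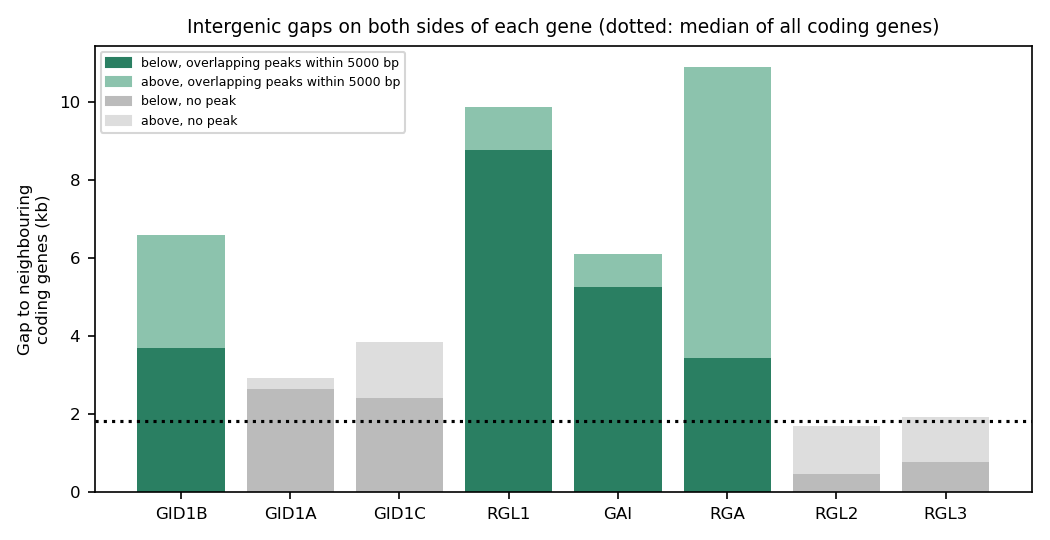
Distance in kb from each gene to the neighbouring protein-coding genes below (dark) and above (light) it; genes with overlapping peaks are green and those without a peak grey. The summed gaps of GID1B, RGL1, GAI and RGA run from 6093 bp to 10893 bp, above those of the other 4 genes.

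Among other gibberellin genes the share with overlapping peaks was smaller at the 5000 bp limit. Of 14 synthesis genes 1 had overlapping peaks within 5000 bp, GA20OX3, an oxidase gene of the late synthesis steps, with scores of 149.02 and 155.82. Of 10 inactivation genes 2 had them, GA2OX2 (71.84 and 191.96) and GA2OX8 (118.98 and 64.48), which encode oxidases that inactivate gibberellin. Of 14 further signalling genes 3 had them: the gibberellin-regulated peptide genes GASA1 (113.76 and 87.99) and GASA6 (57.43 and 122.31), and SCL3 (66.73 and 57.76), a GRAS regulator that acts against DELLA proteins. SLY1, which encodes the F-box protein for DELLA proteins, was not among them. Together this made 6 of 38 genes, 15.8%, against 11.5% of all protein-coding genes. Of 15 GRAS genes outside the DELLA group 3 had overlapping peaks, HAM1 (271.63 and 244.78), SHR (100.84 and 128.91) and SCL8 (79.02 and 113.07). No difference between these lists and the 8 genes was tested, and their shares at a limit of 1000 bp were not counted. The best-ranked pairs of GA2OX8, GASA6, SCL3, HAM1 and SCL8 lay within 1000 bp in both lists. Those of GA20OX3, GA2OX2, GASA1 and SHR did not.

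In other hormone pathways, too, the share of receptor and repressor genes with overlapping peaks lay above the 11.5% of all protein-coding genes. It was 10 of 23 for the abscisic acid receptors and their PP2C phosphatases, led by PYL9 (444.68 and 653.3). The count was 11 of 35 for the auxin receptors and Aux/IAA repressors, led by IAA9 (534.77 and 812.97). It was 4 of 13 for the jasmonate receptor COI1 and the JAZ repressors, led by JAZ6 (444.55 and 473.67). All 4 of these were JAZ genes, and COI1 had no overlapping peaks within 5000 bp. The leading gene of each of these 3 lists ranked above GID1B and RGL1 in both peak lists. At 4 of 8, the share of the gibberellin genes was above these at the 5000 bp limit, but the order turned with the limit. Within 1000 bp, 1 of the 8 gibberellin genes had overlapping peaks, below 8 of 23 abscisic acid, 4 of 13 jasmonate and 7 of 35 auxin genes. Among all protein-coding genes the share at that limit was 5.03%. The differences between the lists were not tested.

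**Figure D5:**
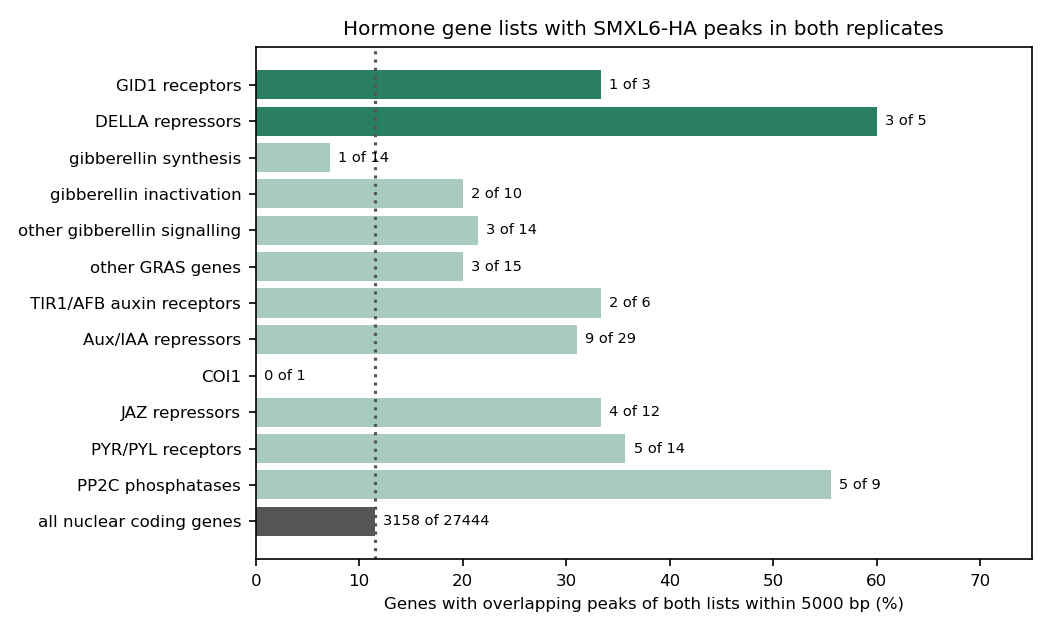
Percentage of the genes of each list with overlapping peaks of list 1 and list 2 within 5000 bp, with the counts beside the bars; the dotted line marks the 11.5% of all nuclear protein-coding genes. GID1 receptors reach 1 of 3 and DELLA repressors 3 of 5, beside 5 of 9 PP2C phosphatases and 9 of 29 Aux/IAA repressors.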

How the data were processed

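The data were 2 peak lists from 4 ChIP-seq libraries. The build was TAIR10, and the tools were MACS 1.4.2, BWA 0.7.10-r789 and SAMtools, per the submitters' processing notes, with parameters not given in the sources used here. Each deposited list gives each peak's position, name and the authors' score, with no summit, read count or enrichment. The score was read as −10 times log10 of p since 50, which a p of 1e-05 would give, is the lower bound of all scores but 1. Starts were converted to count from 1. Gene positions came from a RefSeq table of TAIR10.1, which has the nuclear sequence of TAIR10; it gives neither strand, exons nor sequence, so UTR, exon and intron classes were not used here.

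Distance is the difference between the facing ends of gene and peak, 0 if they overlap. Peaks overlapping by at least 1 bp were shared. Distances and overlaps were computed in Python 3.11.15 and checked on simulated data. Of 137 list symbols, 109 matched by symbol, 18 by synonym and 5 by locus code, and IAA21 to IAA25, synonyms of auxin response factors, were dropped. The 8 genes and all lists were chosen with earlier results of these data known. All 8 genes are named, plus up to 3 per other list by mean rank, and genes with the nearest end to a peak. NPL41, AT1G14930, SLY1 and the tRNA genes are named beyond that rule. No test was made.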

Additional observations from a re-analysis of the deposited data

How the results depend on the processing

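Both counts, of genes with peaks of both lists within 5000 bp and of genes with overlapping peaks, were 4 of 8. Peaks of both lists lay within the limit at 12.2% of all protein-coding genes in that setting, and overlapping ones at 11.5%. Shares in the other settings are for peaks of both lists, unless stated otherwise. A limit of 2000 bp gave 3 (without RGL1), against 6.97% of all, and one of 10000 bp gave 4, against 20.5%. Scores of at least 50 left 4, against 12.2%. Each count was 1 (GID1B) with a limit of 1000 bp, against 5.13% of all, or 5.03% for overlapping peaks. Each was 2 (GID1B and RGL1) with scores of at least 100, against 5.33%, or 5.17% for overlapping peaks. Settings added after the data were seen gave 1 (GID1B) where the peak had to overlap the gene, against 3.40% of all, and 1 (GID1B) where each peak went to the nearest gene of any type, against 2.57%. Distances within 1000 bp were also counted for the other hormone lists after the data were seen. With list 1 peaks cut down to the median list 2 width, or with overlap over 50% of both peaks, GAI lost its overlapping pair. That left 3 genes with overlapping peaks, against 10.4% of all in the first setting and 5.8% in the second. At GAI both losses followed from geometry. The cut was made around the peak midpoint, and the list 2 peak makes up 17.0% of the list 1 peak near its lower end. Leaving out a replicate pair drops the need for a second peak, so the count cannot fall below 4 and says nothing of stability: it was 4 with list 2 alone, against 15.4% of all, and 4 with list 1 alone, against 21.4%. No paired analysis was possible because each list is already the comparison of 1 replicate pair and the counts come from no test. Read depth is unknown, and it limits what was detectable at the 4 genes without peaks.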

Other observations

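GID1B and RGL1 each had higher-scoring shared peaks of other genes nearby. Next to GID1B, a list 1 peak with a score of 768.38, rank 15, lay 9161 bp below the gene over TIR1, which encodes an auxin receptor; at TIR1 the overlapping list 2 peak had a score of 503.6, rank 58. Between them stood a shared peak with scores of 232.45 and 200.31, nearest to AT3G62990. Above RGL1, 9510 bp and 9904 bp away, a shared peak with scores of 486.55 and 531.4, ranks 48 and 53, had its nearest gene end at MYB114, a regulator of anthocyanin synthesis. Neither peak lay within 5000 bp of the gibberellin gene.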
